A study of Marchantia polymorpha with 9 samples.

Results

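The genes described here were already transcribed in wild-type Marchantia polymorpha thalli and stood higher in both lines that overexpress MpBHLH12, a IIIf basic helix-loop-helix (bHLH) transcription factor of this liverwort. They were chosen from the expression table by 2 limits, an average of 1 or more FPKM in Tak-1 (fragments scaled by the length of each gene and by the size of its library) and a log2((line + 1)/(Tak-1 + 1)) of 1 or more in both lines. Of 19287 genes in the table, 12921 reached 1 FPKM in Tak-1, and 158 of these passed the limit in both lines. MpBHLH12 itself (Mapoly0031s0161) and 5 genes of scaffold 70 were left out, which leaves 152 members. Because the levels in Tak-1 and the changes against Tak-1 chose the members, both are given below as a description and without a test.

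RNA was sequenced from 3-week-old thalli of 3 groups without treatment. These were Tak-1, an untransformed male wild-type strain, and the Tak-1 transformants MpBHLH12ox#2 and MpBHLH12ox#3, whose labels call the gene MpGL3. Per the study's methods, both lines carry MpBHLH12 fused to the fluorescent protein Citrine behind the constitutive 35S promoter, are independent transformants, and were sampled as pooled thallus pieces, so that MpBHLH12 was expressed outside its own pattern and each line is 1 transformant. The labels number 3 replicates in each group, but the table gives 1 average FPKM per group made by the authors. It shows neither the spread between replicates nor the depth of any library, so no difference below is set against replicate error. The study's own calls of changed genes, made with edgeR, were not used here.

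IIIf bHLH proteins of Arabidopsis thaliana act together with MYB proteins, and are known for epidermal cell fate and for turning on anthocyanin genes. In land plants the shikimate pathway makes phenylalanine, which phenylalanine ammonia lyase turns into cinnamate, the entry compound of the phenylpropanoid pathway. Cinnamate 4-hydroxylase and 4-coumaroyl-CoA ligase carry it on to the substrate that chalcone synthase uses for flavonoids, and methyltransferases and UDP-glycosyl transferases decorate the products. The thallus is the flat green body of the liverwort, which bears gemma cups on its upper side and holds several cell types. In whole thallus pieces, more cells of a type and more RNA per cell cannot be told apart.

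MpBHLH12 stood at 20.3 FPKM in Tak-1 and then 547.6 in MpBHLH12ox#2 and 474.6 in MpBHLH12ox#3, so the targeted gene was high in both lines as their labels say. Over all genes with 1 or more FPKM in Tak-1 the median level was 14.4, 14.3 and 14.5 FPKM in Tak-1, MpBHLH12ox#2 and MpBHLH12ox#3, and the median log2 change was close to 0 in each line, at -0.0047 and -0.0032. A log2 rise of 1 or more was found in 1.72% of these genes in MpBHLH12ox#2, in 2.31% in MpBHLH12ox#3 and in 1.22% in both lines. The tissue label was not checked, since no marker genes could be matched to the identifiers. The lines share their Tak-1 control, so an error in the Tak-1 average enters both changes.

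The members were modestly expressed genes in the wild type. Their median level was 6.002 FPKM in Tak-1, with a lower quartile of 2.75 and an upper quartile of 12.2. It was 20.8 FPKM in MpBHLH12ox#2, between quartiles of 9.96 and 50.4. In MpBHLH12ox#3 the median was 21.5 FPKM, between quartiles of 10.1 and 44.3. In Tak-1, 34 of the 152 stood above the median of all genes with 1 or more FPKM in Tak-1, compared with 99 in MpBHLH12ox#2 and 96 in MpBHLH12ox#3. No member reached 100 FPKM in Tak-1, and 13 did so in MpBHLH12ox#2 and 10 in MpBHLH12ox#3. The median member thus stood below the median of all genes with 1 or more FPKM in Tak-1, and above it in both lines. The rule required a rise from each member, so this shift follows in part from their choice.

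**Figure D1:**
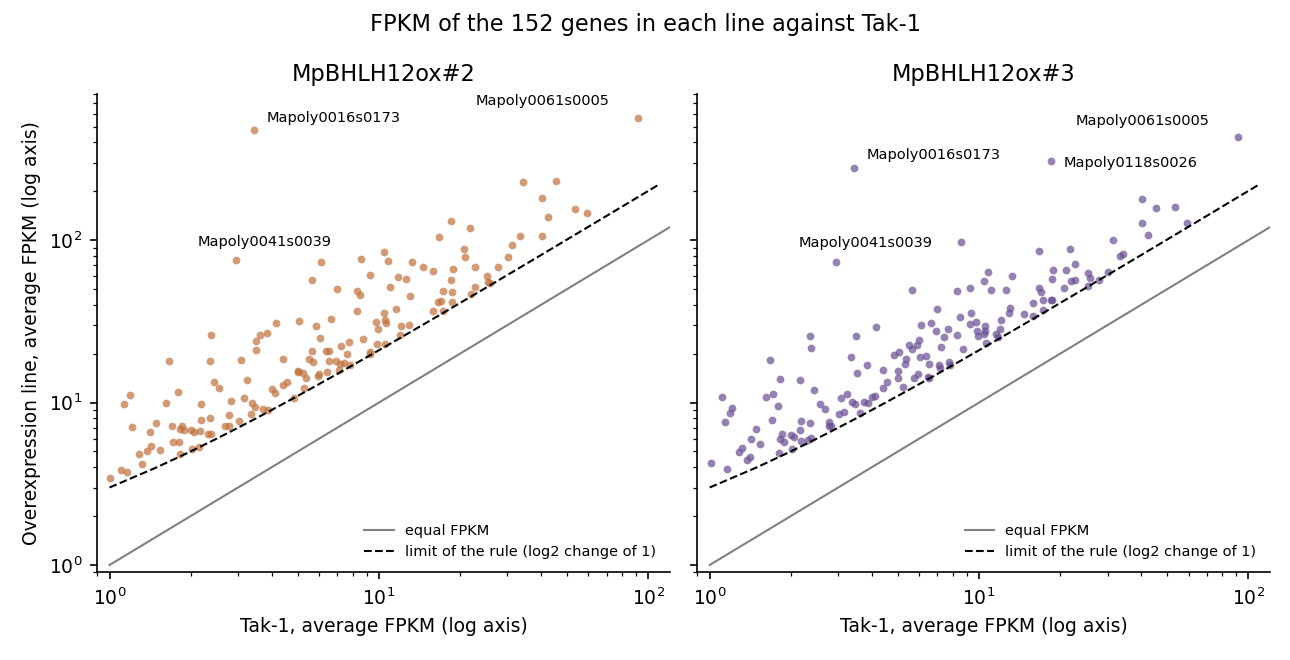
Average FPKM of the 152 members in MpBHLH12ox#2 (left) and MpBHLH12ox#3 (right) against Tak-1, each point a gene and both axes logarithmic, with the line of equal FPKM and the limit of the rule. The members spread from 1.01 to 91.4 FPKM in Tak-1 and most lie near the limit, while Mapoly0016s0173 stands far above it in both lines.

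Most changes were moderate, and a few were large. The median log2 changes were 1.47 for MpBHLH12ox#2 and 1.44 for MpBHLH12ox#3. Without the added 1 FPKM, the median FPKM ratios to Tak-1 were 3.24 and 3.15. The mean of both lines lay between 1 and 1.5 in 83 members, between 1.5 and 2 in 36, between 2 and 3 in 28, and at 3 or more in 5. A log2 change of 2 or more in both lines was reached by 25 members, where the share among all genes was 0.201%. The FPKM of all members together made up 0.236% of the table's total in Tak-1, but 1.01% in MpBHLH12ox#2 and 0.898% in MpBHLH12ox#3. Of that gain, 5 genes accounted for 29.9% in MpBHLH12ox#2 and 27.9% in MpBHLH12ox#3.

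How often a gene was a member depended on its level in Tak-1. Members made up 2.40% of the genes at 1 to 2 FPKM (23 of 957), 2.33% at 2 to 5 FPKM (40 of 1720) and 1.79% at 5 to 10 FPKM (40 of 2231). The share was 0.925% at 10 to 20 FPKM (28 of 3028), 0.606% at 20 to 50 FPKM (18 of 2972) and 0.149% at 50 or more FPKM (3 of 2013). On the log2(FPKM + 1) scale the median of the mean change was between 1.37 and 1.54 in each of these 6 classes. That scale understates changes at low FPKM. The median FPKM ratio was 3.77 in MpBHLH12ox#2 and 4.21 in MpBHLH12ox#3 in the lowest class, and 2.89 and 3.00 in the highest, with the other classes between 2.99 and 3.29 and between 2.52 and 3.25. Values of weakly transcribed genes rest on fewer fragments, and the part of this in the higher share was not tested.

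Mapoly0016s0173 changed the most among the members. It had 3.43 FPKM in Tak-1, compared with 477.7 in MpBHLH12ox#2 and 280.1 in MpBHLH12ox#3, a log2 change of 6.76 and 5.99. By rank it went from place 11066 of all genes to place 201 in MpBHLH12ox#2 and 347 in MpBHLH12ox#3. No annotation of this gene was at hand.

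The next largest changes differed in how the lines compared with each other. Mapoly0041s0039 had 2.94 FPKM in Tak-1 and almost the same level in both lines, 75.3 in MpBHLH12ox#2 and 73.6 in MpBHLH12ox#3. Mapoly0118s0026 had 18.5 FPKM in Tak-1, against 130.5 in MpBHLH12ox#2 and 309.1 in MpBHLH12ox#3, so the increase was clearly larger in MpBHLH12ox#3. Mapoly0161s0003 went from 8.599 FPKM to 76.1 and 98.1, and Mapoly0035s0092 from 5.65 FPKM to 56.8 and 49.4. These 5 genes were the members with a mean log2 change of 3 or more. None of the 5 is annotated in the tables used here, so what their products do is not stated.

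Of the remaining 7 among the 12 members with the largest mean change, a pair is annotated and is described further below, Mapoly0002s0225 and Mapoly0004s0307. Mapoly0022s0193 had 1.67 FPKM in Tak-1 and then 17.9 and 18.2 in the lines. Mapoly0091s0050 had 2.35, 18.1 and 25.6 FPKM in Tak-1, MpBHLH12ox#2 and MpBHLH12ox#3. Both were among the weakly transcribed genes of the wild type. Mapoly0203s0009 had 10.5, 84.8 and 55.7 FPKM, and Mapoly0376s0002 had 4.14, 30.7 and 29.4 FPKM. Mapoly1233s0001 stood apart from these by its line difference, with 6.11 FPKM in Tak-1 and then 73.2 in MpBHLH12ox#2 and only 29.9 in MpBHLH12ox#3.

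The members with the highest wild-type levels differed in the size of their change. Mapoly0061s0005 was the most abundant member in every group, with 91.4 FPKM in Tak-1, compared with 566.1 in MpBHLH12ox#2 and 431.5 in MpBHLH12ox#3, a log2 change of 2.62 and 2.23. Mapoly0047s0106 had 45.4, 230.1 and 157.6 FPKM, and Mapoly0073s0049 had 40.3, 183.0 and 178.5 FPKM. Among the 10 members most abundant in Tak-1, these were the 3 with a mean log2 change above 2. Mapoly0033s0062, the second in wild-type level, had 59.1 FPKM in Tak-1, against 147.6 in MpBHLH12ox#2 and 127.0 in MpBHLH12ox#3, a log2 change of only 1.31 and 1.09. Mapoly0002s0317 had 42.5, 138.9 and 107.8 FPKM. Mapoly0145s0017 had 31.3, 92.9 and 100.5 FPKM. None of these 6 genes has a written annotation in the tables used here.

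Enzymes of phenolic metabolism supplied the annotated members with the clearest roles. The study's list of shikimate and phenylpropanoid pathway genes holds 82 genes, of which 70 lie outside scaffold 70 and 62 of those had 1 or more FPKM in Tak-1. Among these 62 genes, 5 were members (8.06%, beside 1.22% of all genes passing the limit in both lines), and the median log2 change of the 62 was 0.16 in MpBHLH12ox#2 and 0.24 in MpBHLH12ox#3. The list was taken by the study from other publications, and the membership rule used the same contrast, so the share is a description. Statements on the list here and below cover only genes outside scaffold 70, from which 5 genes passed the limits and were left out.

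Phenylalanine ammonia lyase, the entry enzyme of the phenylpropanoid pathway, was represented by a single member. Mapoly0132s0049 had 53.6 FPKM in Tak-1 and then 155.1 in MpBHLH12ox#2 and 161.0 in MpBHLH12ox#3, a log2 change of 1.51 and 1.57. It was the third most abundant member in Tak-1. The other 5 expressed genes outside scaffold 70 annotated as phenylalanine ammonia lyase had mean log2 changes between -0.04 and 0.23. These enzymes form a family of similar genes, and reads that fit several copies make the values of single copies uncertain.

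A gene annotated as flavonol 3-O-methyltransferase, an enzyme that adds a methyl group to a flavonoid hydroxyl, was the pathway member with the largest change. Mapoly0129s0005 had 20.97 FPKM in Tak-1, compared with 79.2 in MpBHLH12ox#2 and 65.1 in MpBHLH12ox#3, while the only other expressed methyltransferase of the list had a mean log2 change of -0.26. UDP-glycosyl transferases, which attach sugars to small molecules such as flavonoids, gave 2 members of 8 expressed genes. Mapoly0099s0001, annotated as a UDP-glucosyl transferase of family 73C, had 10.6, 30.9 and 23.1 FPKM in Tak-1, MpBHLH12ox#2 and MpBHLH12ox#3. Mapoly0067s0104 was lower, with 2.17, 6.64 and 6.75 FPKM. The same enzyme class also held the list's only gene that was lower by 1 or more in both lines, Mapoly0047s0001, at 26.6 FPKM in Tak-1, against 0.88 in MpBHLH12ox#2 and 1.22 in MpBHLH12ox#3.

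The fifth pathway member encodes a protein of the NAD-dependent epimerase/dehydratase family, which holds reductases of flavonoid metabolism among many other enzymes. Mapoly0063s0049 had 9.89 FPKM in Tak-1 and then 28.3 in MpBHLH12ox#2 and 25.8 in MpBHLH12ox#3. Its neighbour Mapoly0063s0048, of the same annotation, was also higher in both lines without reaching the limit, with 5.83, 10.9 and 10.7 FPKM. Outside scaffold 70, whose genes were left out, the core steps between phenylalanine and chalcone gave no further member. Of the 3 expressed cinnamate 4-hydroxylase genes, none was a member, with mean log2 changes from 0.40 to 0.77. The 3 genes annotated as 4-coumaroyl-CoA ligase had 0.01 to 0.44, the 11 chalcone or polyketide synthase genes -0.30 to 0.98, and the 7 shikimate pathway genes -0.32 to 0.52. At any size, 37 of the 62 genes were higher in both lines (59.7%, against 40.1% of all genes with 1 or more FPKM in Tak-1) and 16 were lower in both.

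**Figure D2:**
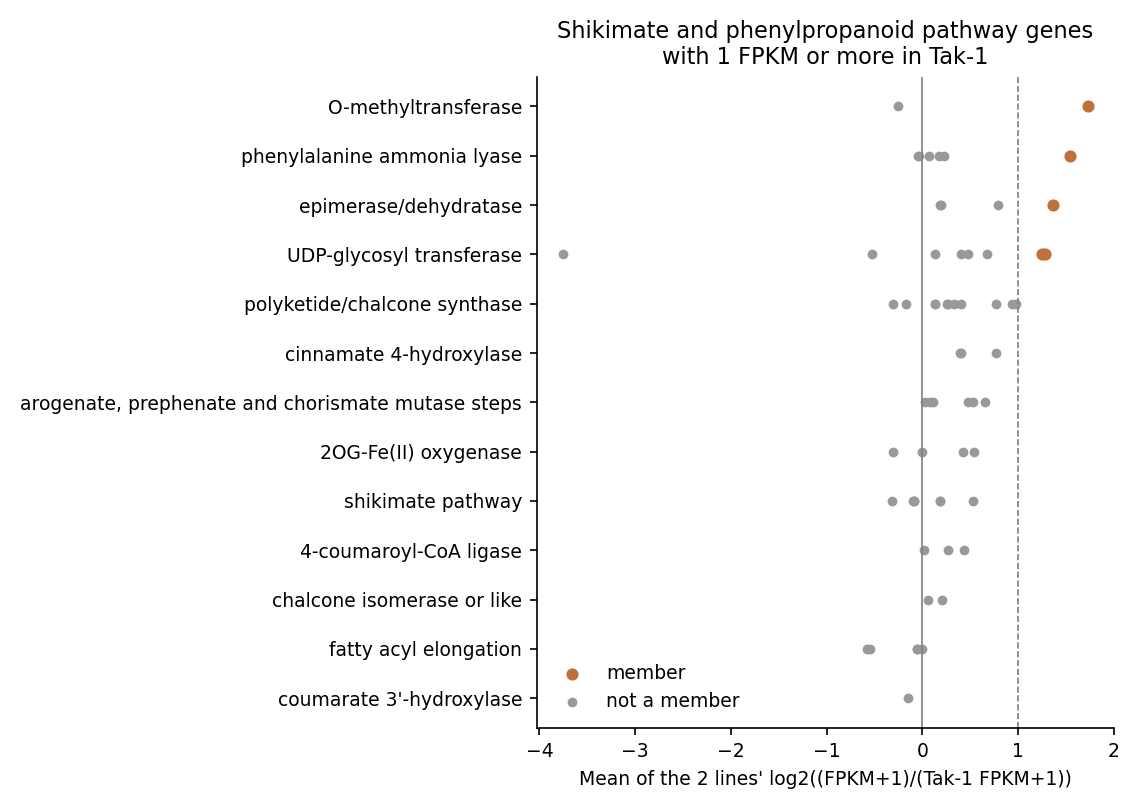
Mean of both lines' log2((FPKM+1)/(Tak-1 FPKM+1)) for the 62 shikimate and phenylpropanoid pathway genes outside scaffold 70 with 1 or more FPKM in Tak-1, each point a gene, by enzyme class. The 5 members lie right of the dashed limit at 1 in 4 of the 13 classes, and chalcone synthase genes reach up to 0.98 just left of it.

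Another 4 members lay directly beside a gene of that list without belonging to it, which is 2.72% of the 147 members outside the list, compared with 0.532% of all expressed genes outside it (68 of 12785). This count was made after their values were seen. Mapoly0040s0122 was the most changed of them after the lectin gene described next, with 8.28 FPKM in Tak-1, compared with 36.7 in MpBHLH12ox#2 and 48.4 in MpBHLH12ox#3. Its list neighbour Mapoly0040s0121, annotated as polyketide or chalcone synthase, was nearly silent in all groups at 0.0156, 0.0273 and 0 FPKM. The listed neighbours of the other 3 did not reach the limit either, with mean log2 changes of -0.31 for Mapoly0002s0224, 0.52 for Mapoly0008s0188 and 0.20 for Mapoly0040s0032.

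Outside phenolic metabolism, only the first 10.02% of the study's annotated gene list was available, 1933 genes with 1441 at 1 or more FPKM in Tak-1. It covers 10 of the 152 members, 8 of them with a written annotation, and together with the pathway list 13 members could be described and 139 could not. Family comparisons below cover only that first part of the list, so relatives elsewhere in the genome are not seen. Mapoly0002s0225 encodes a D-mannose binding lectin, a carbohydrate-binding protein. It had 2.39 FPKM in Tak-1, against 25.9 in MpBHLH12ox#2 and 21.6 in MpBHLH12ox#3. The other 3 genes with this annotation in the part at hand were at 0.301 FPKM or less in Tak-1, and their log2 changes in either line stayed between -0.09 and 0.14.

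Mapoly0004s0307 encodes a pyridoxal-phosphate dependent enzyme related to cystathionine beta-synthase, a group that works on amino acids. It had 10.8 FPKM in Tak-1 and then 74.7 in MpBHLH12ox#2 and 63.8 in MpBHLH12ox#3. The other 5 genes of this family at hand were expressed in Tak-1, and their mean log2 changes lay between -0.58 and 0.01. An acyl transferase of the family that includes acylating enzymes of plant secondary metabolism, Mapoly0001s0569, went from 2.37 FPKM to 8.07 and 7.49. Its 4 expressed relatives at hand had mean log2 changes from -1.26 to 0.35, so the directions among them differed.

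Mapoly0002s0345 and Mapoly0002s0346 stand next to each other at the end of scaffold 2 and both carry the domain named Stress up-regulated Nod 19. Mapoly0002s0345 had 1.19 FPKM in Tak-1, compared with 11.2 in MpBHLH12ox#2 and 8.58 in MpBHLH12ox#3. Mapoly0002s0346 was far more abundant, with 33.4, 106.0 and 80.1 FPKM. The gene before them, Mapoly0002s0344, holds the same domain and did not reach the limit, with 13.1, 18.4 and 22.9 FPKM. Such neighbouring copies can share reads, which the table does not resolve.

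The other annotated members were Mapoly0004s0164, Mapoly0003s0270 and Mapoly0004s0097. The other genes at hand of their families did not pass the limit in both lines. Mapoly0004s0164 holds a chlorophyll A-B binding domain, the domain of the light-harvesting antenna, and had 2.18 FPKM in Tak-1, against 9.78 in MpBHLH12ox#2 and 7.66 in MpBHLH12ox#3. The other 4 expressed genes at hand with this domain had mean log2 changes from -0.33 to 0.85. The lowest was that of the abundant antenna gene Mapoly0001s0025, which stood at 1954, 1508 and 1595 FPKM. Mapoly0003s0270, a mitochondrial solute carrier, had 8.74, 24.5 and 21.5 FPKM, while its 9 expressed relatives at hand had mean log2 changes from -0.12 to 0.36. Mapoly0004s0097, a probable lipid transfer protein, had 1.32, 4.22 and 5.28 FPKM. Of the 12 M. polymorpha genes in the study's bHLH phylogeny, 9 had 1 or more FPKM in Tak-1. Mapoly0013s0167 was the only member among them, beside 1.22% of all genes passing the limit in both lines. MpBHLH12, also in the phylogeny, passed the limit but was left out by the rule. Mapoly0013s0167 had 1.42 FPKM in Tak-1 and then 6.55 in MpBHLH12ox#2 and 4.61 in MpBHLH12ox#3.

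By annotation group, the part of the list at hand placed 1 member among the 10 expressed genes of photosynthesis or chlorophyll binding and none in the other 13 groups examined. Members made up 0.694% of all expressed genes with this annotation (10 of 1441), and with 4 to 55 expressed genes in each group a count of 0 says nothing about a group. The groups included oxidation-reduction process, with 55 expressed genes and median log2 changes of -0.11 in MpBHLH12ox#2 and -0.06 in MpBHLH12ox#3. They also included the transcription factor group, with 18 genes and medians of -0.02 in both lines, and cytochrome P450, with 8 genes and medians of 0.62 and 0.35.

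The lines were farther apart among the members, and among other genes past the limit, than among genes in general. The median distance between the lines was 0.26 over the members on the log2(FPKM + 1) scale and 0.09 over all genes with 1 or more FPKM in Tak-1. It was 0.27 over the 50 genes that passed the same limit from under 1 FPKM in Tak-1, and 0.18 over 153 genes lowered by 1 or more in both lines and still at 1 or more FPKM. In 92 members the level was lower in MpBHLH12ox#3 than in MpBHLH12ox#2 (60.5%), where 46.4% of all genes with 1 or more FPKM in Tak-1 were lower. The median difference, MpBHLH12ox#3 minus MpBHLH12ox#2 on the log2(FPKM + 1) scale, was -0.09 over the members and 0.01 over all genes. Of the 50 genes from under 1 FPKM, 38.0% were lower in MpBHLH12ox#3, and of the 153 lowered genes 41.2%. MpBHLH12 itself differed by -0.21. With 1 value for each line, none of these shares could be tested. The rule set a limit on both lines, so it also shaped the differences between the lines given here and below. It left out 64 genes past the limit in MpBHLH12ox#2 only and 138 in MpBHLH12ox#3 only.

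The lines were 0.5 or more apart in 25 members (16.4%), beside 3.16% of all genes. The share was 12% among the 50 genes from under 1 FPKM in Tak-1 and 11.1% among the lowered genes, so such distances were not limited to the members. In 14 of them MpBHLH12ox#3 was lower (9.21%, with 1.11% among all genes) and in 11 it was higher (7.24%, with 2.05%). A distance of 1 or more was seen in 8 members (5.26%, with 0.511%), of which 4 were lower and 4 higher in MpBHLH12ox#3. Of the 8, 4 came as adjacent pairs, on scaffold 342 and, in the opposite direction, on scaffold 37. Mapoly0342s0002 had 34.2 FPKM in Tak-1, compared with 228.7 in MpBHLH12ox#2 and 81.8 in MpBHLH12ox#3. Its neighbour Mapoly0342s0003 had 3.60, 26.0 and 8.57 FPKM and thus almost the same difference, -1.50 against -1.47. On scaffold 131, Mapoly0131s0035 had 11.8, 58.9 and 25.2 FPKM and Mapoly0131s0036 had 8.27, 48.8 and 26.0. Their differences were -1.19 and -0.89, so only the first is among the 8. Mapoly0029s0004 and Mapoly0029s0005 were a further adjacent pair with lower levels in MpBHLH12ox#3, from 14.6 FPKM to 68.6 and 34.9 and from 15.8 FPKM to 64.5 and 40.8.

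The opposite direction was held by other adjacent pairs. Mapoly0037s0002 had 2.16 FPKM in Tak-1, against 5.36 in MpBHLH12ox#2 and 13.8 in MpBHLH12ox#3, and Mapoly0037s0003 had 3.34, 8.50 and 19.2 FPKM. Mapoly0154s0001 had 4.85, 10.7 and 19.6 FPKM, and Mapoly0154s0002 had 9.30, 20.6 and 35.8 FPKM. In both pairs the neighbouring genes matched each other closely. The widest difference in this direction was that of Mapoly0014s0170, which stood alone, with 1.11 FPKM in Tak-1 and then 3.87 in MpBHLH12ox#2 and 10.9 in MpBHLH12ox#3. Mapoly0035s0090 and Mapoly0749s0001 were also higher in MpBHLH12ox#3, by 0.93 and 0.88. Mapoly0012s0136 and Mapoly0016s0173 were lower in MpBHLH12ox#3, by a difference of -0.78 and -0.77.

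**Figure D3:**
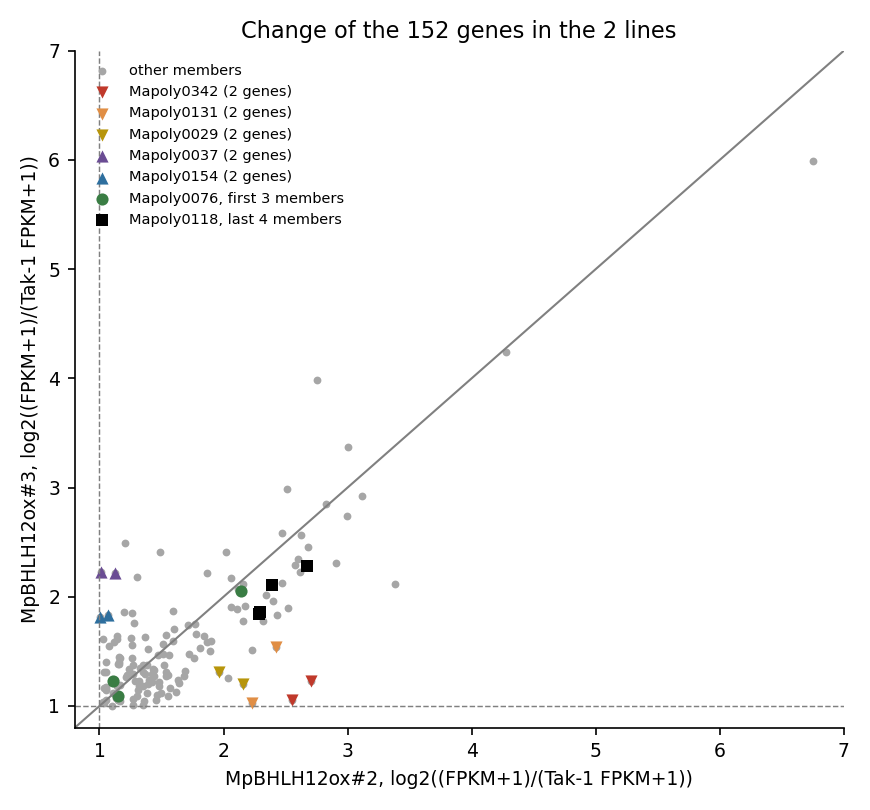
Log2((FPKM+1)/(Tak-1 FPKM+1)) of the 152 members in MpBHLH12ox#3 against MpBHLH12ox#2, each point a gene, with the line of equal change, the limits of the rule (dashed), and members of 7 stretches of nearby genes coloured. Coloured neighbours from the same scaffold lie at a similar distance from the line of equal change, the pair on scaffold 37 above it and the pair on scaffold 342 below it. Their sizes of change can differ, as on scaffold 76 with mean log2 changes of 1.12, 2.09 and 1.17.

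Neighbouring members thus resembled each other in how the lines differed, a measure that the rule did not use directly. Gene identifiers number the genes along each scaffold of the assembly, so that consecutive numbers mark neighbours. Of the 152 members, 26 (17.1%) lay next to another member, in 10 pairs and 2 runs of 3. In the 14 pairs of consecutive members the line differences were 0.12 apart at the median and 0.37 at most, and 10 pairs (71.4%) were less than 0.25 apart. Among all 11476 pairs of members the median was 0.35, and 37.5% were less than 0.25 apart. Being next to a gene of the same kind was about as frequent among the 153 lowered genes, at 16.3%. How reads shared by similar neighbours were counted is not stated, so single values of neighbouring copies are uncertain.

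A stretch of genes with higher levels lay on scaffold 161. All 7 genes numbered 33 to 39 were higher in both lines, with log2 changes from 0.73 to 1.14 in MpBHLH12ox#2 and from 1.30 to 1.84 in MpBHLH12ox#3, and each was higher in MpBHLH12ox#3 by 0.47 to 0.88. Of these, 3 were members. Mapoly0161s0033 had 22.7 FPKM in Tak-1, compared with 51.2 in MpBHLH12ox#2 and 71.5 in MpBHLH12ox#3. Mapoly0161s0036 had 18.7, 41.6 and 58.0 FPKM, and Mapoly0161s0038 had 9.28, 20.003 and 30.4 FPKM. The gene before the stretch, Mapoly0161s0032, was lower in both lines, with 56.3, 38.7 and 45.4 FPKM, and number 39 is the last gene of the scaffold in the table.

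On scaffold 118 the members Mapoly0118s0045, Mapoly0118s0047, Mapoly0118s0048 and Mapoly0118s0049 closed the scaffold in the same manner. Mapoly0118s0049 was the most abundant, with 13.2 FPKM in Tak-1, against 73.8 in MpBHLH12ox#2 and 60.4 in MpBHLH12ox#3. Mapoly0118s0045 had 7.01, 50.1 and 37.9 FPKM. Mapoly0118s0047 had 8.53, 45.7 and 33.6 FPKM, and Mapoly0118s0048 had 3.51, 20.9 and 15.1 FPKM. All 4 were lower in MpBHLH12ox#3 by a similar amount, from -0.28 to -0.44. The gene between them, Mapoly0118s0046, was at 0.0635 FPKM or less in every group, and Mapoly0118s0043 in front stayed at 9.08, 8.602 and 9.71 FPKM. Mapoly0118s0026, with the third largest change, lies on the same scaffold away from this stretch, between genes with mean log2 changes of 0.12 and -0.35.

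Other stretches mixed members with genes that missed a limit. On scaffold 76, Mapoly0076s0003 had 7.17, 17.2 and 16.4 FPKM, Mapoly0076s0004 had 6.66, 32.7 and 30.7 FPKM, and Mapoly0076s0005 had 3.73, 9.18 and 10.1 FPKM in Tak-1, MpBHLH12ox#2 and MpBHLH12ox#3. The next pair of genes stood almost as much higher, Mapoly0076s0006 by 0.83 and 1.104 and Mapoly0076s0007 by 0.98 and 1.08, before Mapoly0076s0008 stood near its wild-type level again. On scaffold 10, Mapoly0010s0141 had 40.4, 105.6 and 127.0 FPKM and its neighbour Mapoly0010s0142 had 9.72, 31.3 and 31.3 FPKM. They were followed by Mapoly0010s0143 and Mapoly0010s0144, both from under 1 FPKM in Tak-1 to between 2.32 and 2.63 FPKM in the lines. The member Mapoly0010s0145, with 22.7, 68.7 and 56.8 FPKM, closed this stretch.

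A change from near silence beside a member was also seen elsewhere. In all, 8 members lay next to a gene that rose from under 1 FPKM in Tak-1 by the same limit (5.26%), beside 0.364% of all genes with 1 or more FPKM in Tak-1 (47 genes) and 2 of the 153 lowered genes (1.31%). The widest contrast was on scaffold 35, where Mapoly0035s0092 precedes Mapoly0035s0093, which had 0.113 FPKM in Tak-1 and then 364.4 in MpBHLH12ox#2 and 151.3 in MpBHLH12ox#3. The member Mapoly0035s0090 and the lowered gene Mapoly0035s0088, at 41.4, 12.8 and 9.77 FPKM, lie in the same place. Genes past the limit upward and downward thus stood within a few genes of each other there.

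The remaining pairs were found on scaffolds 22, 155 and 182. Mapoly0022s0192 had 1.43, 5.38 and 5.94 FPKM beside the strongly changed Mapoly0022s0193. Mapoly0155s0011 had 1.14, 9.81 and 7.62 FPKM and Mapoly0155s0012 had 1.16, 3.75 and 3.91 FPKM. Both of this pair were just above the limit on Tak-1. Mapoly0182s0001 and Mapoly0182s0002, the first genes of their scaffold, changed alike, from 4.55 FPKM to 13.5 and 13.4 and from 3.37 FPKM to 9.97 and 10.1.

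**Figure D4:**
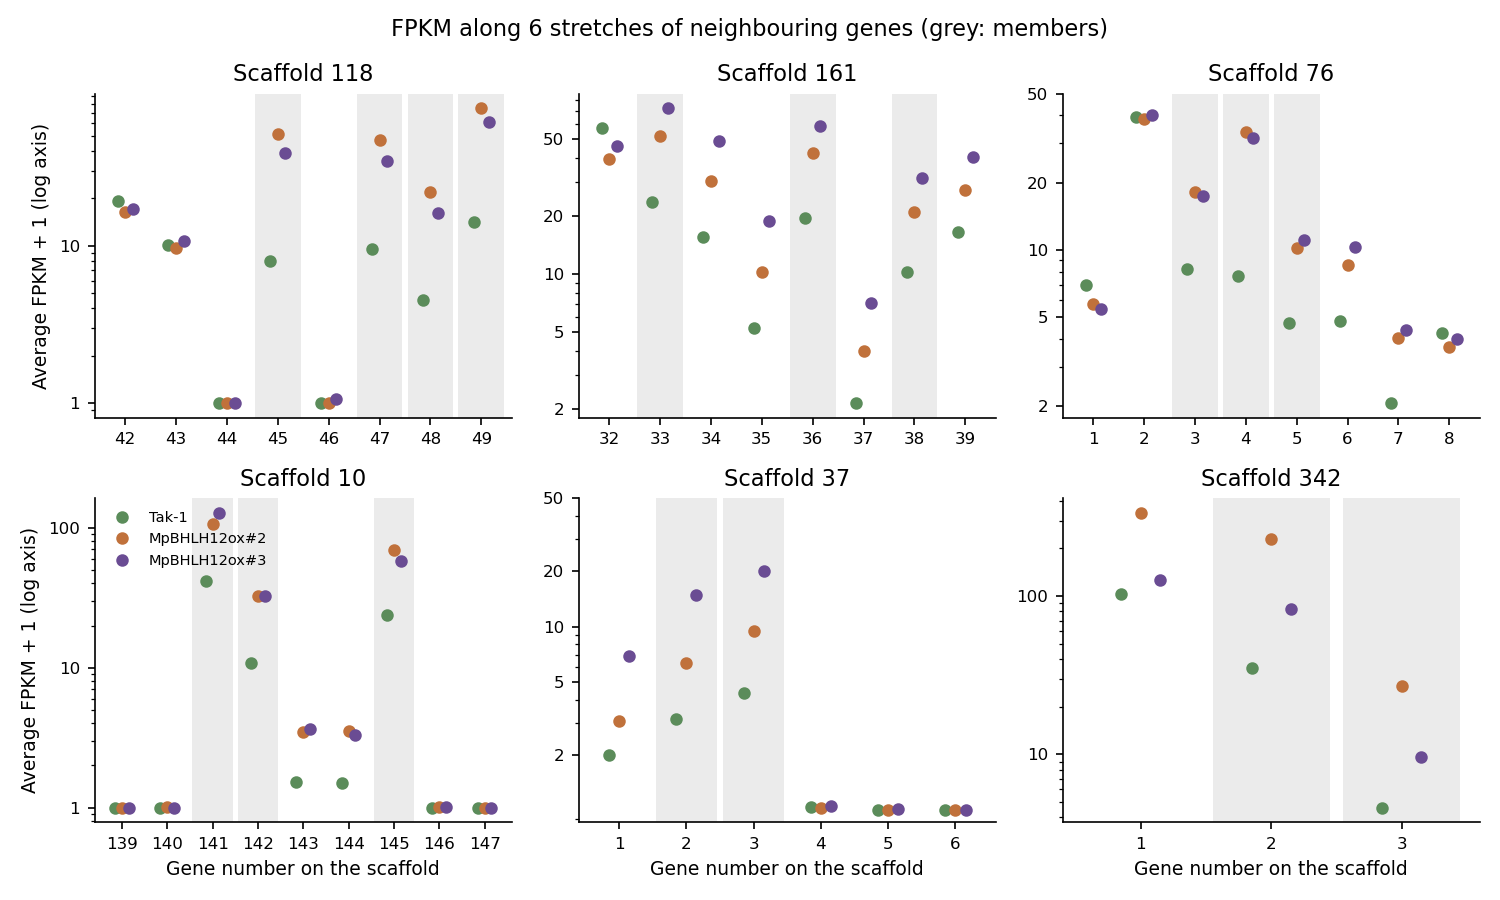
Average FPKM + 1 on a log axis in Tak-1, MpBHLH12ox#2 and MpBHLH12ox#3 along 6 stretches of genes in the order of their numbers, with members shaded grey. On scaffold 161 every gene from 33 to 39 is highest in MpBHLH12ox#3, on scaffold 342 every gene is highest in MpBHLH12ox#2, and on scaffold 118 the rise begins at gene 45.

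Around the members, genes with higher levels in the lines were more frequent than in general, most so at a distance of 1 or 2 genes. Of the 138 expressed genes directly beside a member and not members themselves, 25 had a mean log2 change of 0.5 or more (18.1%), against 6.45% of all 12768 expressed genes outside the set. The share was 15.5% at a distance of 2 genes, 9.33% at 3, 11.2% at 4 and 7.80% at 5, and between 5.67% and 9.59% at 6 to 10. Genes with a mean log2 change of -0.5 or less made up 10.1% of the directly neighbouring genes and 6.82% of all genes outside the set. The median of the neighbouring genes was 0.07, so most neighbours of a member stayed near their wild-type level.

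The members were frequent near the ends of scaffolds, which are places where the assembled sequence stopped and not ends of chromosomes. On scaffolds with more than 10 genes, 44 of 137 members (32.1%) were among the first or last 5 genes, compared with 10.9% of all genes with 1 or more FPKM in Tak-1 (1358 genes) and 11.1% of the lowered genes (16 of 144). Of the genes with under 1 FPKM in Tak-1 that rose by the same limit, 27.3% were found there (12 of 44). The share of genes that were members fell from 4.23% at places 1 and 2 from an end (21 of 496) to 2.68% at places 3 to 5 (23 of 859), 1.26% at places 6 to 10 and 0.670% at places 11 to 20. This position was noticed in the data after the members were known, and it is given as a description.

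The 44 members near an end came from 28 scaffolds. Of the 11 runs of neighbouring members on scaffolds with more than 10 genes, 9 lay within 5 genes of an end, so the 2 features share many genes. Leaving out the members in runs, 24 of 113 (21.2%) were still among the first or last 5 genes. By level in Tak-1, the share was 23.8% of the members at 1 to 2 FPKM, 36.1% at 2 to 5, 36.8% at 5 to 10 and 39.1% at 10 to 20, where 9.79% to 13.0% of the other genes of the same levels lay near an end. Only 2 of 16 members at 20 to 50 FPKM were near an end (12.5%, against 10.2% of the other genes). The 44 include Mapoly0061s0005, number 5 of its scaffold, Mapoly0161s0003, Mapoly0004s0307 and the methyltransferase gene Mapoly0129s0005. The members with the largest changes, Mapoly0016s0173, Mapoly0041s0039 and Mapoly0118s0026, are not among them. Genes near an end that were not members had a median mean log2 change of 0.01, and 10.2% of them were higher by 0.5 or more, against 5.64% of those farther in.

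Small scaffolds held more members as well. On scaffolds with 5 or fewer genes lay 14 members (9.21%), beside 2.65% of all genes with 1 or more FPKM in Tak-1 and 5.88% of the lowered genes. In 11 of these the member is the only gene of its scaffold in the table. Mapoly0329s0001 had 16.7 FPKM in Tak-1, compared with 104.3 in MpBHLH12ox#2 and 85.3 in MpBHLH12ox#3. Mapoly0970s0001 had 21.8, 119.4 and 87.8 FPKM. Mapoly1199s0001 was weaker, with 1.62, 9.93 and 10.8 FPKM. These 3 genes were named after their values were seen.

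**Figure D5:**
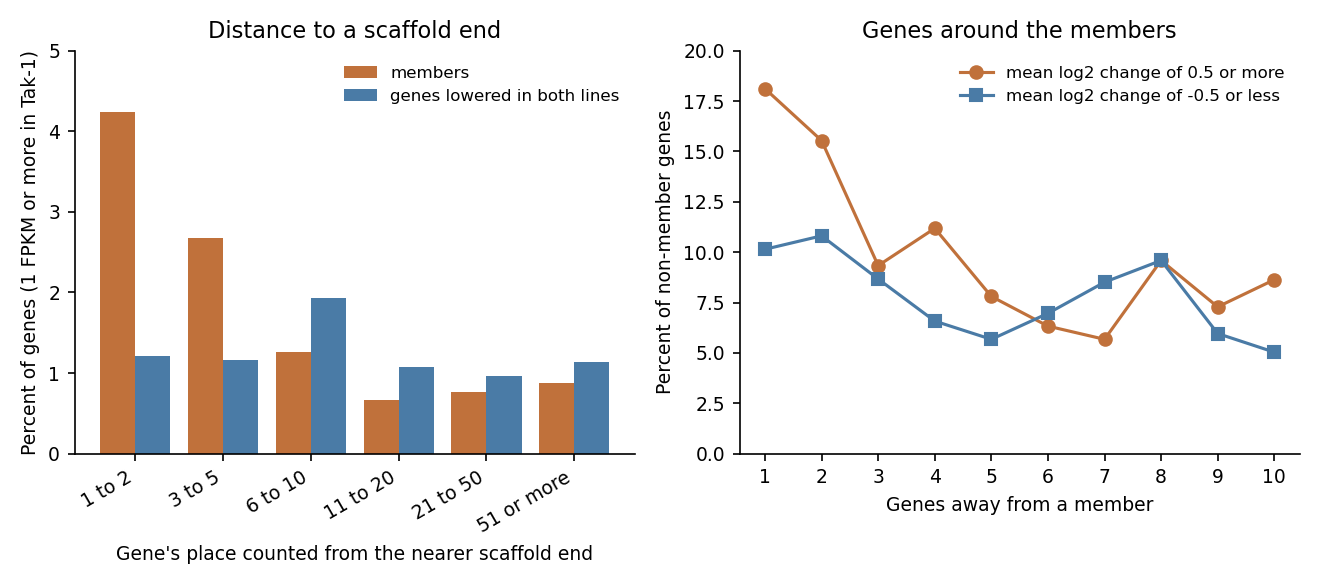
Left, percent of genes with 1 or more FPKM in Tak-1 that are members or lowered genes by place from the nearer end, on scaffolds with more than 10 genes. Right, percent of expressed non-member genes with a mean log2 change of 0.5 or more, or of -0.5 or less, by distance in genes from a member. The share of members falls from 4.23% at the outermost places, and the share of raised neighbours from 18.1% next to a member.

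Over the whole assembly the members were found on 102 of 763 scaffolds, and 71 of these held a single member. None lay among the 113 genes whose identifiers place them on the Y chromosome, of which 35 had 1 or more FPKM in Tak-1. With 1.22% of all genes past the limit in both lines, a count of 0 among 35 genes is not below the background.

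The limits of the rule cut through a continuous range of values. Mapoly0154s0001 was the closest inside, with a log2 change of 1.0005 in MpBHLH12ox#2, and Mapoly0049s0064 followed with 1.0009 in MpBHLH12ox#3. Just outside were Mapoly0100s0061, at 0.9955 in MpBHLH12ox#3, and Mapoly0172s0019, at 0.9941 in MpBHLH12ox#2. The smaller change of the 5 nearest members ended at 1.01, and that of the 5 nearest genes outside at 0.98. In 31 members the smaller of the changes was under 1.1, and in 57 genes left out it was between 0.9 and 1. For the limit on Tak-1, Mapoly0016s0185 was just inside with 1.01 FPKM and Mapoly0112s0039 just outside with 0.969 FPKM, the latter at 7.20 and 7.33 FPKM in the lines. The 5 nearest on either side reached to 1.19 and down to 0.826 FPKM. A further 64 genes passed a change of 1 in MpBHLH12ox#2 only and 138 in MpBHLH12ox#3 only.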

How the data were processed

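Total RNA of pooled thallus pieces was sequenced for 9 samples, 3 in each of 3 groups assigned from the sample titles. Per the study's methods the reads were mapped to the JGI 3.1 genome with Bowtie2 and fragments were determined with HTSeq, and the submitters' processing notes also name Cuffdiff 2.2.1. The values were deposited by the authors as FPKM, 1 average per group. The program, annotation and filter behind the averaged FPKM were not given in the sources used here. Depth per sample is unknown, and no interval or test could be computed from these averages.

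Changes were computed as log2(FPKM + 1) of a line minus that of Tak-1, which understates changes at low FPKM. A linear model had been planned for replicate values and was not used, since the table has 1 value per group. The members, gene lists and comparisons were chosen with earlier results of these data known. Genes were named by a rule: members among the 12 largest mean changes, the 10 highest levels in Tak-1, the 8 largest line differences in each direction, the 5 nearest inside and outside each limit, all annotated members, and members in runs with the genes beside them. Others were named after their values were seen. Scaffold 70 was left out by the rule of the set. Annotation came from the identifiers and annotation columns of the study's supplementary tables, and none of their values was used. Of the gene identifiers, 0 were found in the RefSeq gene table of MpTak2_v7.1, so no sequence is shown. Alternatives were pseudocounts of 0.1 and 5, no pseudocount, changes of 0.5 and 2, other limits on Tak-1, and rescaling. The rule was tested on simulated data. Python 3.11.15, numpy 2.4.6, pandas 2.3.3 and matplotlib 3.10.9 were used.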

Additional observations from a re-analysis of the deposited data

How the results depend on the processing

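The number of members depended on the limits. It was 152 as reported, 69 with a pseudocount of 5, 685 with a log2 change of 0.5, 25 with a change of 2 and 89 with 5 or more FPKM in Tak-1, all fewer or more by construction of the limit. It was 210 with a pseudocount of 0.1, 202 without a limit on Tak-1, 152 after rescaling to a median change of 0, and 227 with an FPKM ratio of 2 or more and no pseudocount, which was added after seeing the data. All 152 members were among the 210, the 227 and the rescaled 152, and all 69 were members. This overlap also follows from the settings, since each can only enlarge or only shrink the change of a raised gene. The median log2 change of the members in MpBHLH12ox#2 moved from 1.47 to 1.675 with a pseudocount of 0.1 and 1.102 with 5, and in MpBHLH12ox#3 from 1.44 to 1.63 and 1.12. Shikimate and phenylpropanoid members numbered 5, against 13 at a change of 0.5, 0 at 2 and 3 with a pseudocount of 5. Members higher in MpBHLH12ox#3 numbered 60, and 58 after rescaling. The share of members near a scaffold end, 32.1%, lay between 21.5% and 38.1% under 5 alternatives added after seeing the data. Of 61 named members, a pseudocount of 0.1 moved 20 and one of 5 moved 31 by more than the difference between the lines. A pseudocount cannot change the sign of a change.

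No paired analysis was possible because the values used here are 1 average per group, in columns with no replicate number. Leaving out each replicate and the replicate block were not run for the same reason. The main limit is that the values used here give neither the spread between replicates nor the depth. It weighs most on members with few FPKM in Tak-1.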
